A study of Mus musculus with 6 samples.

Results

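The postsynaptic density is the protein mat beneath the receptors of an excitatory synapse. Described here are 34 genes, mainly for its scaffolds, linkers and signalling enzymes, in the cortex of mouse embryos labelled as Csmd3 knockout. They include Cnih2 and Cnih3, for auxiliary subunits of AMPA receptors, and Gphn, for a scaffold of inhibitory synapses. The members were chosen by symbol, matched through their Ensembl identifiers to GENCODE release M21, and all 34 were found among the 55401 gene rows of the count table. All 34 also passed the filter on low counts and were among the 19844 genes tested. Gene expression was measured by RNA sequencing of whole cortex at embryonic day 18 (E18) in C57BL/6 embryos, with 3 wild-type (WT) libraries and 3 libraries from embryos labelled Csmd3-/-. All embryos came from matings of heterozygous Csmd3 parents. Which exons of Csmd3 were removed, the sex of the embryos and whether a library is a single embryo are not stated in the labels, so p-values measure the spread between these libraries.

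At a glutamatergic synapse, MAGUK proteins (the products of Dlg1 to Dlg4, such as PSD-95 from Dlg4) hold receptors in the membrane, SAPAP proteins (Dlgap1 to Dlgap4) link them to Shank proteins, and Homer proteins tie Shanks to metabotropic receptors. CaMKII, a kinase activated by calcium and calmodulin, and regulators of small GTPases and of actin act on this scaffold. In the cortex most of these synapses form after birth.

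Of the 34 genes, 3 fell and 0 rose at an adjusted p below 0.05: Dlg2, a MAGUK scaffold, Cnih2, an auxiliary subunit of AMPA receptors, and Nsmf, which encodes Jacob, a messenger from synapse to nucleus. The 3 are 8.82% of the members, and over all genes tested 7.74% were called, 2.53% lower and 5.21% higher. DESeq2 called 6 members lower and 1 higher, and limma-voom 3 and 1. The median log2 fold change (knockout minus wild type) of the 34 genes was -0.11, against 0.0020 for all genes tested, and 23 of the 34 values were negative, where 49.7% of all genes were. At an unadjusted p below 0.05, 10 members were lower and 1 was higher (29.4% and 2.94%), against 9.71% and 12.5% of all genes. The 3 knockout libraries were all below the 3 wild-type libraries for 8 members (23.5%) and all above for 2 (5.88%), against 13.5% and 15.6% of all genes. Most members lay near 0, with 19 of 34 within 0.15 on the log2 scale.

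The median of the 34 rested in part on single libraries. It was -0.05 without wild-type library 1 or without knockout library 2, and -0.02 with knockout libraries 2 and 3 both left out, against -0.16 without wild-type library 3. With both of those knockout libraries left out no member passed, a fit in which the lone knockout library is taken to vary like the wild-type ones.

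**Figure D1:**
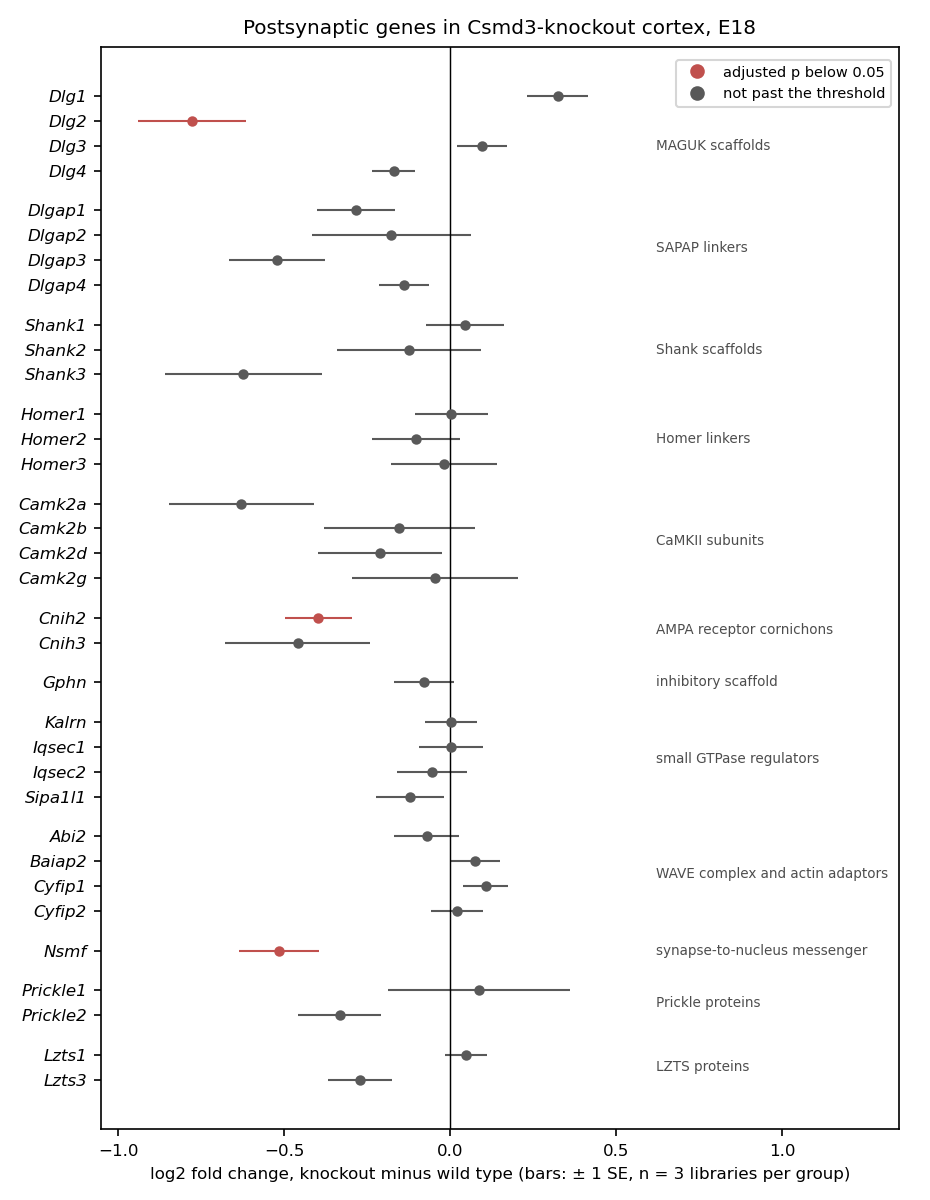
Log2 fold change (horizontal axis, knockout minus wild type) of each of the 34 genes, grouped by role, with bars of 1 SE. Dlg2, Cnih2 and Nsmf are the 3 genes past an adjusted p of 0.05, all below 0, and the Homer, small GTPase and WAVE groups sit close to 0.

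Deposited totals ran from 54244288 to 68269607 estimated counts per library, and the counts of the 34 genes from 454 (Camk2d) to 27343 (Dlgap4), so that none was near the limit of detection. Csmd3 itself had 992, 765 and 867 counts in wild type and 675, 653 and 543 in knockout (-0.59 on the log2 scale, SE 0.13, adjusted p = 0.0233 by the quasi-likelihood test of edgeR), and the counts cover the whole gene, so this checks the labels only weakly. The Csmd3 call ended when wild-type library 1, or any knockout library, was omitted (adjusted p up to 0.101). Markers of cortical excitatory neurons were present in all libraries (summed level of 9 genes 3112 to 3397 CPM in wild type and 3144 to 3650 in knockout, with 1 lower and 0 higher). CPM is the TMM-scaled count relative to library depth. The other neuronal markers and the other cell types did move: 7 of 15 pan-neuronal genes fell and 0 rose (median log2 fold change -0.29, summed level 8632 to 10130 CPM in wild type and 7470 to 7815 in knockout), and 2 of 9 inhibitory neuron genes fell (median -0.32, 398 to 492 and 321 to 395 CPM). Meningeal and mural cell markers rose in 14 of 15 (median 3.95, 112 to 122 CPM in wild type, 688 to 856 in knockout). Mean levels there went from 3.68 to 133 CPM for Col1a1 and from 66.4 to 106 for Rgs5. Markers of microglia and macrophages rose in 10 of 13 (median 1.17, 37.4 to 43.4 and 124 to 154). Among them Mrc1 went from a mean of 0.79 to 25.3 CPM and F13a1 from 0.47 to 23.6. P2ry12 (0.22, SE 0.21), Trem2 (0.26, SE 0.27) and Aif1 (0.77, SE 0.39) did not pass. Endothelial markers rose in 7 of 10 (median 0.73, 255 to 289 and 437 to 542). Those of dividing cells rose in 10 of 14 (median 0.62, 885 to 999 and 1450 to 1506). Choroid plexus markers summed to 6.87 to 7.89 CPM in wild type and 45.4 to 523 in knockout, unevenly between the knockout libraries. Of 7 tested, 3 were higher (median 4.24), Aqp1, Enpp2 and Slc13a4, while Ttr, Kcne2, Kl and Clic6 did not pass. Ttr alone was at 1.91, 35.7 and 452 CPM in knockout libraries 1, 2 and 3, where Slc13a4 was at 12.1, 6.46 and 6.89. Folr1 was at 0 in all wild-type libraries, and Folr1, Kcne2 and Otx2 were at 0 in knockout library 1. Erythroid genes (0 of 7, 1519 to 2106 and 1886 to 2203 CPM) differed less. Radial glia and astrocyte genes (2 of 12 higher, 0 lower) had similar sums, 1144 to 1289 and 1100 to 1284 CPM, but moved both ways, with 7 negative and 5 positive values. Pax6 (0.43 on the log2 scale) and Nes (0.41) rose, and Hes1 (0.60) did not pass. Gfap (-1.35), Aqp4 (-0.74), Slc1a2 (-0.45), Aldh1l1 (-0.42) and Fabp7 (-0.29) were negative and did not pass. The part of these shifts in the results below was not tested, and in whole cortex fewer cells of a type and less RNA per cell cannot be told apart.

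Of the 3 genes that fell, 2 have a RefSeq promoter window, Cnih2 and Dlg2. Their promoters are shown with those of Cnih3 and Dlg1, members of the same families that did not pass. Windows of 300 bases, 250 before to 50 after an annotated start (RefSeq, GRCm38.p6), were found for 25 of the 34 genes, 43 windows in all. Each line gives the 120 bases up to the start, 5′ to 3′ on the gene's strand, for windows in which GENCODE places no exon. Cnih2 (chr19:5098522-5098641, minus strand) and its family member Cnih3 (chr1:181352508-181352627, plus strand) are set beside the MAGUK genes Dlg2 (chr7:92062274-92062393, plus strand, the middle of 3 starts) and Dlg1 (chr16:31663323-31663442, plus strand, the first of 4). The 50 bases after the Dlg1 start shown were not found in a GENCODE transcript of that gene, while those after the other starts shown were. Capitals mark the GC box GGGCGG, the E-box CACGTG and the TATA box TATAAA, each on either strand.
Cnih2: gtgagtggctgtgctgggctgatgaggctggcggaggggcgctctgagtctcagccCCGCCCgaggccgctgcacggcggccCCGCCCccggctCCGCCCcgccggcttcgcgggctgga
Cnih3: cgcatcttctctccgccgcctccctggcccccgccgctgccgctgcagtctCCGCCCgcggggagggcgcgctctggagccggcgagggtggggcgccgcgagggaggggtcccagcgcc
Dlg2: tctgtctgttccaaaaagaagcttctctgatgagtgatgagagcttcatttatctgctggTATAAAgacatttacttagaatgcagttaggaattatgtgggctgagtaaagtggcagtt
Dlg1: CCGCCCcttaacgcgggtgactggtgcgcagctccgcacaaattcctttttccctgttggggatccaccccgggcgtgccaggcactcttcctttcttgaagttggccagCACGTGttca
The Cnih2 stretch is 78.3% G and C and holds 3 GC boxes, and that of Cnih3 is 80.8% with 1. The Dlg2 stretch is 38.3% G and C, with a TATA box and no GC box, and the other 2 Dlg2 windows hold none of the motifs searched. The Dlg1 stretch is 60.0% G and C with a GC box and an E-box. Before the other Dlg1 starts, the second stretch is 66.7% G and C with an E-box, the third 41.7% with no motif searched, and the last 36.7% with a TATA box, like the Dlg2 stretch, so the contrast between the genes depends on the start chosen. Over all windows of the 25 genes, 25 of 43 (58.1%) held a GC box, against 35.7% of 32851 windows of all genes, 4 (9.3%) an E-box, against 7.15%, and 5 (11.6%) a TATA box, against 13.6%. The cAMP response element TGACGTCA was in 0 of 43, against 1.79% of all. The 2 genes that fell share none of these 4 motifs in the windows searched.

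Among the MAGUK genes 1 of 4 fell and 0 rose. Dlg2 (PSD-93) was at 132, 147 and 208 CPM in wild-type libraries 1, 2 and 3 and at 97.2, 89.2 and 97.9 CPM in the knockout libraries, so that every knockout library lay below every wild-type library and wild-type library 3 was the highest. The difference was -0.78 on the log2 scale (SE 0.16, adjusted p = 0.0317). Dlg2 spans 90476672 to 92449247 of chromosome 7 (plus strand, mm10). Of its 16280 exon bases, 150 overlap Gm45131 and 75 overlap Gm45159, both on the same strand. The direction was the same in all 16 alternative fits (-0.92 to -0.56), with adjusted p from 1.77e-05 to 0.475, and it no longer passed when wild-type library 2 (0.0861) or knockout library 1 (0.106), 2 (0.123) or 3 (0.106) was omitted.

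Dlg1 (SAP97), which carries AMPA receptors through the secretory pathway, stood on the other side. Its libraries gave 49.4, 52.6 and 61.0 CPM in wild type and 67.3, 70.2 and 66.5 CPM in knockout, without overlap. The log2 fold change of 0.32 (SE 0.09) did not pass (adjusted p = 0.0638), and over the alternatives the adjusted p ran from 0.0126 to 0.583, below 0.05 by DESeq2 (0.0315), by limma-voom (0.0298) and without wild-type library 3 (0.0126). Dlg4 (PSD-95), the main MAGUK of the mature synapse, had 299.6, 329 and 306 CPM in wild type and 269.8, 279.7 and 281 in knockout, a small difference of -0.17 (SE 0.06, adjusted p = 0.154) with groups that did not overlap. Dlg3 (SAP102), the MAGUK known to predominate early in development, was at 105 ± 8.27 CPM in wild type and 112 ± 1.47 in knockout (SD, n = 3; 0.10 on the log2 scale, SE 0.08, adjusted p = 0.523).

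Because the 4 MAGUKs share binding partners, their shares of the family's transcripts were also computed per length, in TPM, which divides counts by the length of all exons of a gene before scaling to depth. Dlg2 made up 15.6%, 16.0% and 20.9% of the summed MAGUK TPM in wild type and 11.5%, 10.5% and 11.5% in knockout. Dlg1 made up 8.87%, 8.66% and 9.32% in wild type against 12.04%, 12.6% and 11.8% in knockout. Dlg3 held 31.8% ± 0.21 and 36.7% ± 0.571 (SD, n = 3), and Dlg4 41.8% ± 3.35 and 40.0% ± 0.771. Although Dlg3 is the one known to predominate early, Dlg4 was above it in every library here. By this length Dlg2 was above Dlg1 in all 3 wild-type libraries and below it in all 3 knockout libraries. The family's sum was 194 ± 16.9 TPM in wild type and 189 ± 2.08 in knockout. Shares depend on one another, since they add to 100%, and no test was made of them. With the longest transcript as the length, Dlg2 went from 20.7% to 13.6% and Dlg1 from 8.85% to 12.4%. The change of order was then lost: Dlg2 stayed above Dlg1 in knockout libraries 1 (14.02% and 12.35%) and 3 (13.93% and 12.02%) and was level with it in knockout library 2 (12.81% and 12.82%).

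**Figure D2:**
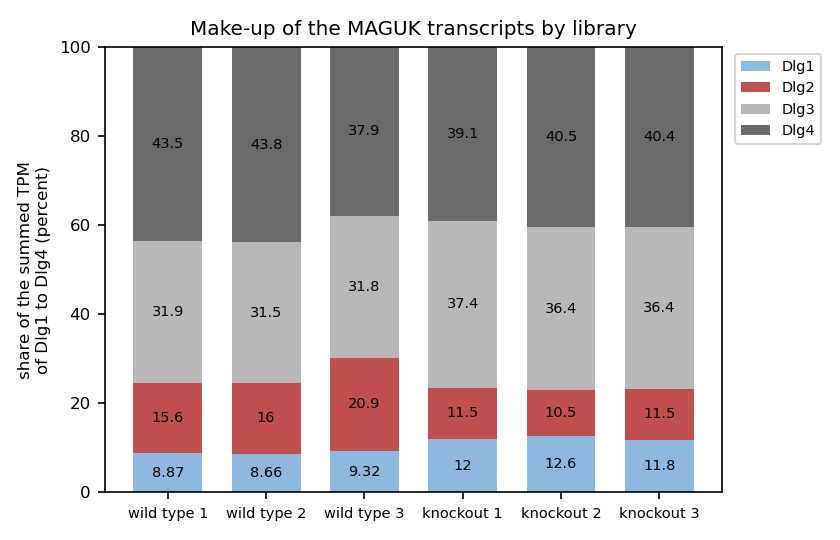
Share of each MAGUK gene (vertical axis, percent of the summed TPM of Dlg1 to Dlg4) in each of the 6 libraries, with the value printed in each segment. The Dlg2 segment is 15.6% to 20.9% in wild type and 10.5% to 11.5% in knockout, while that of Dlg1 is wider in all 3 knockout libraries.

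Among the SAPAP linkers, all 4 genes had negative values and 0 of 4 passed. Dlgap3, known for its role at striatal synapses, was at 53.8, 52.0 and 37.1 CPM in wild type and 33.5, 29.9 and 36.2 in knockout. Wild-type library 3 lay within 1 CPM of the highest knockout library, and the groups did not overlap. The difference was -0.52 on the log2 scale (SE 0.14, adjusted p = 0.0605). Over the alternatives the adjusted p ran from 0.00501 to 0.523, below 0.05 by DESeq2 (0.00908), by limma-voom (0.0304), with counts divided by 4 (0.0479) and without wild-type library 3 (0.00501).

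Dlgap1 had 78.4, 63.0 and 86.8 CPM in wild type and 63.5, 66.5 and 57.4 in knockout (-0.28 on the log2 scale, SE 0.12, adjusted p = 0.191), with groups that overlapped through wild-type library 2. Dlgap4, the SAPAP gene with the highest level per length, was at 409 ± 26.9 and 372 ± 23.2 CPM (-0.14, SE 0.08), and Dlgap2, the lowest, at 12.5 ± 4.16 and 11.1 ± 2.20 CPM (-0.18, SE 0.24).

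The Shank genes encode the scaffold beneath SAPAP. Shank3 was at 116, 95.3 and 66.8 CPM in wild type and 73.6, 51.8 and 55.4 in knockout, and wild-type library 3 lay below knockout library 1. Its log2 fold change of -0.62 (SE 0.24) did not pass (adjusted p = 0.196), and over the alternatives the adjusted p ran from 0.0131 (DESeq2) to 0.847, and it passed in 3 of the 16, among them without wild-type library 3 (0.0339). Shank1 (0.04, SE 0.12) and Shank2 (-0.12, SE 0.22) had overlapping groups, and Shank2 varied within both, from 99.5 to 146 CPM in wild type and from 80.7 to 126 in knockout. Shank1 and Shank3 each share about 3% of their exon bases with a gene on the opposite strand, and whether counting used read strand is not stated. The 3 Homer genes, which link Shanks to metabotropic glutamate receptors, had a median of -0.02, the nearest to 0 of the 4 scaffold families. Homer1 was at 99.0 ± 16.6 and 99.3 ± 1.40 CPM (0.0039 on the log2 scale, SE 0.11), Homer2 at 39.5 ± 7.88 and 36.8 ± 1.18 CPM (-0.10, SE 0.13) and Homer3 at 56.2 ± 9.17 and 55.5 ± 10.5 CPM (-0.02, SE 0.16). For Homer3, 25.4% of the exon bases overlap Ddx49 on the opposite strand, so its counts may include reads of that gene. Of the 34 genes, 10 have such an overlap with an opposite-strand gene, among them Iqsec1 (4.95%), Homer2 (4.16%) and Gphn (3.92%).

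Of the CaMKII subunit genes 0 of 4 passed, and all 4 values were negative. Camk2a, the subunit that dominates in the mature forebrain, was low at this age, with 17.4, 21.9 and 17.2 CPM in wild type and 15.7, 8.34 and 12.5 in knockout. The groups did not overlap, knockout library 2 was the lowest, and the difference was -0.63 on the log2 scale (SE 0.22, adjusted p = 0.132, from 0.0356 by DESeq2 to 0.799 over the alternatives). Camk2b, the subunit that binds actin, held 66.5% ± 6.97 of the family's TPM in wild type and 64.6% ± 7.76 in knockout, against 4.49% ± 0.869 and 3.23% ± 1.11 for Camk2a. Its levels were 342, 363 and 320 CPM in wild type and 258, 243 and 422 in knockout, so that knockout libraries 1 and 2 lay below all wild-type libraries and knockout library 3 above them. The difference was -0.15 on the log2 scale (SE 0.23, adjusted p = 0.768) over all libraries and -0.45 (adjusted p = 0.0377, over the alternatives up to 0.998) without knockout library 3. That library also held the most counts of the choroid plexus gene Ttr (25057, against 131 and 2262 in the other knockout libraries), and the part of this in the Camk2b value was not tested. Camk2g varied most in wild type, where library 2 had 66.2 CPM and libraries 1 and 3 had 128 and 115, with 99.8 ± 6.48 CPM in knockout (-0.05, SE 0.25). Camk2d was the least abundant of all 34 genes per length (1.58 ± 0.392 TPM in wild type and 1.44 ± 0.20 in knockout; -0.21 on the log2 scale, SE 0.19).

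**Figure D3:**
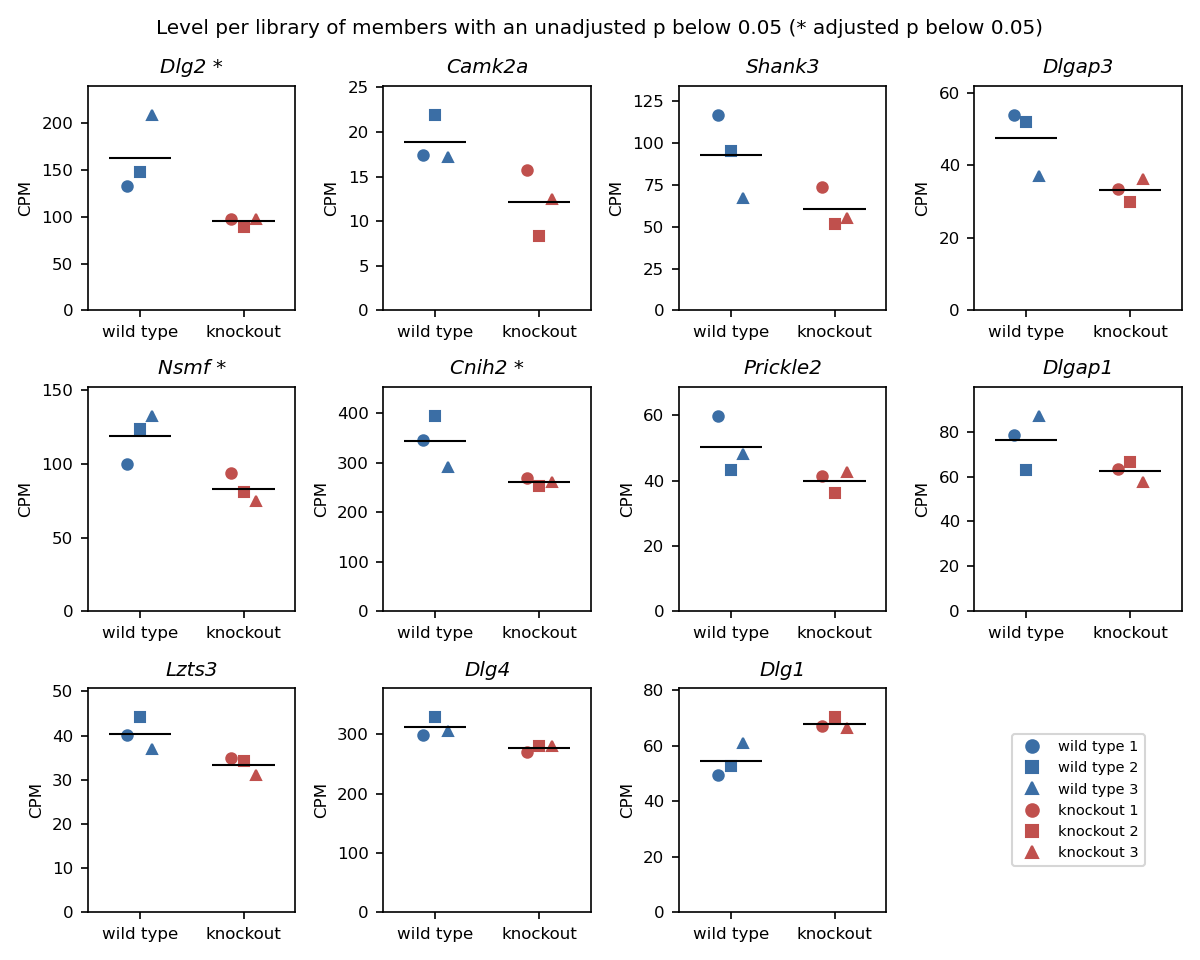
CPM in each library (vertical axes from 0, a symbol per replicate, horizontal lines at the group means) for the 11 genes with an unadjusted p below 0.05. Dlg2, Nsmf and Cnih2 (marked with a star) have all knockout libraries below all wild-type libraries, Dlg1 has them above, and in Shank3 and Dlgap1 the groups overlap.

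Both cornichon genes had negative values, and Cnih2 passed. Their products ride on AMPA receptors, slow receptor deactivation and promote export to the surface. Cnih2 was at 346, 393 and 291 CPM in wild type and 269.3, 253 and 261 in knockout, with wild-type library 3 closest to the knockout group. The difference was -0.40 on the log2 scale (SE 0.10, adjusted p = 0.0442). The value kept its sign in all 16 alternatives (-0.50 to -0.29, adjusted p from 0.00503 to 0.586), but it passed in only 8 of them; among the settings that ended the call were the omission of any 1 library other than wild-type library 3 (0.108 to 0.160) and the fit that was not robust (0.0665). Cnih2 lies at 5092868 to 5098521 of chromosome 19 (minus strand, mm10), and 14 of its 1369 exon bases overlap Yif1a on the opposite strand. Cnih3 was at 34.7, 66.1 and 51.0 CPM in wild type and 37.6, 34.4 and 38.5 in knockout, so that wild-type library 1 lay among the knockout libraries. Its log2 fold change of -0.46 (SE 0.22) did not pass (adjusted p = 0.282). Without wild-type library 1 it was -0.68 (adjusted p = 0.0255, over the alternatives up to 0.831).

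Per length, Cnih2 stood above every other member. It had 861 ± 108 TPM in wild type and 691 ± 22.7 in knockout (SD, n = 3), and the next gene, Dlgap4, had 167 ± 13.4 and 159 ± 9.57. Cyfip2 (139 ± 14.9 TPM in wild type) and Camk2b (129 ± 5.25) followed, and their wild-type ranges overlapped. Below them Shank1, Nsmf and Dlg4 lay between 80.8 and 83.5 TPM and could not be ordered beyond their spread. Cnih2 holds only 1369 exon bases, and the lengths used for long genes include exons that a given transcript may skip, which lowers their TPM.

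**Figure D4:**
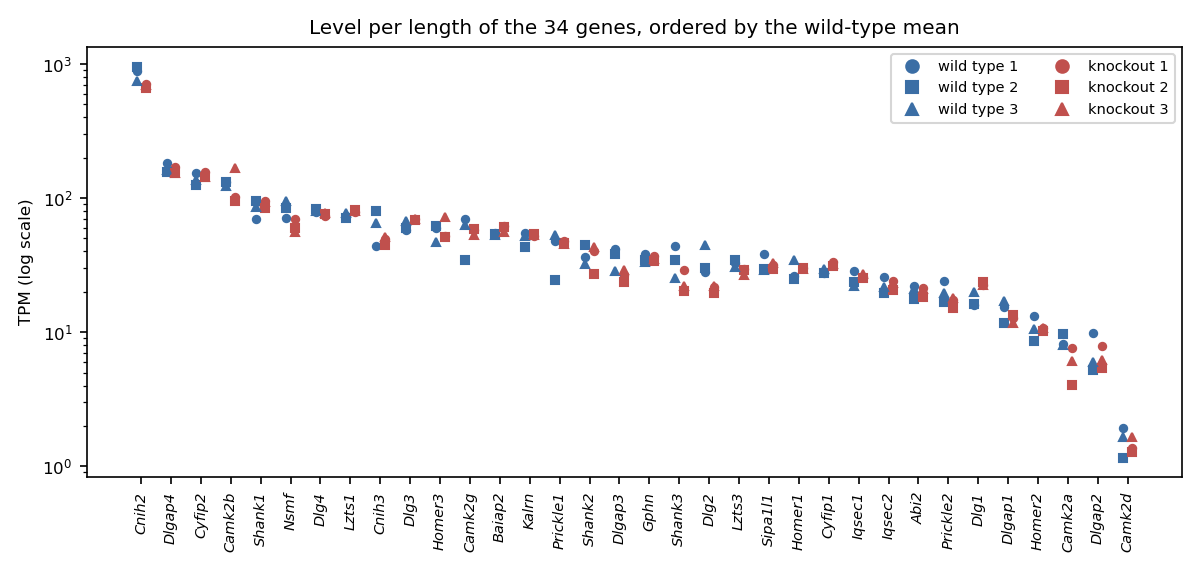
TPM of each gene (vertical axis, log scale) in the 3 wild-type and 3 knockout libraries, ordered by the wild-type mean. Cnih2 is highest at 861 TPM, Camk2d lowest at 1.58 TPM, and most neighbours in the order overlap.

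Nsmf, whose product Jacob travels from NMDA receptors to the nucleus, was at 99.8, 124 and 132 CPM in wild type and 93.9, 80.9 and 74.7 in knockout. The groups did not overlap, although wild-type library 1 and knockout library 1 lay close together. The difference was -0.51 on the log2 scale (SE 0.12, adjusted p = 0.0336). In all 16 alternatives it was negative (-0.64 to -0.33, adjusted p from 0.00185 to 0.615), and it passed in 8 of them; among the settings in which it did not were omitting wild-type library 2 (0.135) or 3 (0.0687), knockout library 2 (0.129) or knockout library 3 (0.146), the fit that was not robust (0.0513) and limma-voom (0.0508). Nsmf lies at 25054355 to 25062881 of chromosome 2 (plus strand, mm10).

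In the Prickle and Lzts pairs 1 member each had every knockout library below every wild-type library, as had 13.5% of all genes tested. None of the 4 passed. Prickle2, a planar polarity protein also found at synapses, was at 59.7, 43.3 and 48.2 CPM in wild type and 41.3, 36.1 and 42.6 in knockout (-0.33 on the log2 scale, SE 0.12, adjusted p = 0.15). Prickle1 had a wild-type library that stood apart, library 2 at 31.8 CPM against 59.8 and 66.5, and knockout libraries between 54.4 and 57.6. Its value of 0.09 (SE 0.27) ran from -0.17 to 0.29 with single libraries omitted. Lzts3, which binds Shank and SPAR proteins, was at 40.1, 44.1 and 36.9 CPM in wild type and 34.9, 34.2 and 31.2 in knockout (-0.27, SE 0.10, adjusted p = 0.133), and Lzts1 at 146 ± 4.04 and 151 ± 3.32 CPM (0.05, SE 0.06). The difference within either pair was not tested.

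Regulators of small GTPases and of actin lay near 0, and 0 of 8 passed. Kalrn, an exchange factor for small GTPases, was at 351 ± 33.2 and 352 ± 6.01 CPM (0.0028 on the log2 scale, SE 0.08). The Arf exchange factor genes Iqsec1 (0.0034, SE 0.10) and Iqsec2 (-0.05, SE 0.10) and Sipa1l1, which encodes the Rap regulator SPAR (-0.12, SE 0.10), had overlapping groups. In the WAVE group, which drives branched actin in spines, Cyfip1 was slightly higher in every knockout library (94.3, 99.3 and 101 CPM against 109, 102 and 105; 0.11, SE 0.07, adjusted p = 0.405), and 11.0% of its exon bases overlap Nipa2 on the opposite strand. Cyfip2 (0.02, SE 0.08), Abi2 (-0.07, SE 0.10) and Baiap2, the gene of the insulin receptor substrate IRSp53 (0.07, SE 0.07), did not pass. Gphn, which encodes gephyrin, the scaffold of inhibitory synapses, was at 38.7 ± 2.87 and 36.6 ± 1.75 CPM (-0.08, SE 0.09, adjusted p = 0.687). With SEs of 0.06 to 0.27 over the 34 genes, the size of the Cnih2 difference is less than 2 times the SE of Prickle1 or Camk2g.

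Wild-type libraries varied more than knockout libraries. The coefficient of variation (SD over mean CPM) was larger in wild type for 29 of the 34 genes (85.3%), against 69.2% of the 10621 tested genes at least as abundant as the least abundant member. The median coefficient was 14.6% in wild type and 5.95% in knockout for the 34 genes, and 9.002% and 5.71% for those genes. Wild-type library 3 lay nearest the knockout group in Dlgap3, Shank3, Cnih2 and Lzts3, but farthest from it in Dlg2 and Nsmf.

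Of 42 further genes of the postsynaptic density, 4 fell and 1 rose, with 33 negative values and a median of -0.13. Over all genes tested, 2.53% fell, 5.21% rose and 49.7% had negative values. Neurogranin, Nrgn, which binds calmodulin, was at 17.2, 18.5 and 8.73 CPM in wild type and 6.26, 4.28 and 5.79 in knockout (-1.44 on the log2 scale, SE 0.29, adjusted p = 0.0257). The AMPA receptor auxiliary subunit gene Cacng3 (-0.58, SE 0.15, adjusted p = 0.0493) and Agap2, a GTPase-activating protein gene (-0.41, SE 0.10, adjusted p = 0.0334), were also lower. Tanc1, a scaffold that binds PSD-95, was higher, at 15.7, 15.6 and 16.8 CPM in wild type and 24.1, 23.4 and 29.0 in knockout (0.67, SE 0.12, adjusted p = 0.00941), and kept its call with any single library left out. Nrgn, Cacng3 and Agap2 no longer passed when any library but wild-type library 3 was omitted.

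Of 16 relatives of the members' families outside the list, 1 rose and 1 fell, against 5.21% and 2.53% of all genes tested, with a median of 0.02. Dlgap5, a SAPAP relative that acts on the mitotic spindle, was at 10.02, 11.7 and 11.6 CPM in wild type and 16.1, 15.5 and 15.7 in knockout (0.51 on the log2 scale, SE 0.12, adjusted p = 0.0301), beside the dividing-cell markers given above. Camk2n2, an inhibitor of CaMKII, was at 101, 102 and 74.2 CPM in wild type and 69.8, 66.6 and 65.3 in knockout (-0.46, SE 0.12, adjusted p = 0.0459). Both calls were lost without any library but wild-type library 3. Of the relatives of genes that fell, Dlg5 was at -0.04 (SE 0.07) and Cnih1, a cornichon of the secretory pathway, at 0.10 (SE 0.11), both with groups that overlapped. Cnih4 was at 29.6, 29.0 and 32.7 CPM in wild type against 36.3, 38.1 and 33.4 CPM in knockout, higher in every knockout library, and did not pass (0.24 on the log2 scale, SE 0.09, adjusted p = 0.172).

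**Figure D5:**
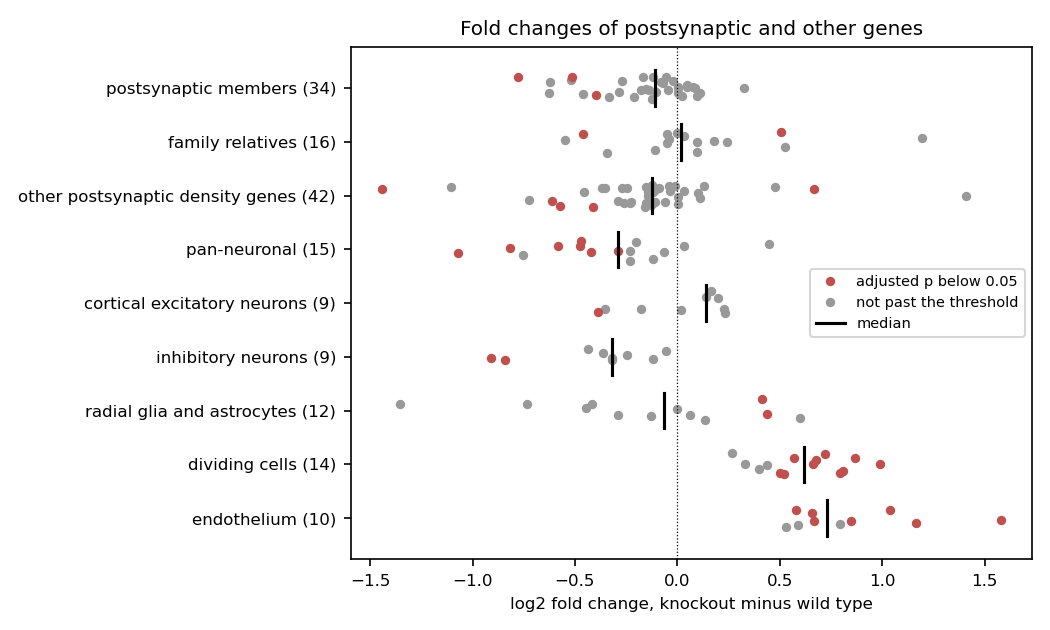
Log2 fold change (horizontal axis) of each tested gene in the 34 postsynaptic genes and 8 other lists, with vertical bars at the medians and genes past an adjusted p of 0.05 in red. The postsynaptic median is -0.11, that of the other postsynaptic density genes -0.13 and that of pan-neuronal genes -0.29, while dividing-cell and endothelial genes lie to the right.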

How the data were processed

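Per the file headers, the authors deposited a single table of gene counts for 3 wild-type and 3 knockout libraries. The deposited values were handled as estimated counts, since a count of 4 was more frequent than 3 or 5. In wild-type library 1, 1298 genes had a count of 4, 492 a count of 3 and 318 a count of 5. Tools listed in the submitters' processing notes are HISAT2 2.0.5, StringTie 1.3.4, Trim Galore 0.4.4 and FastQC 0.11.9, with the build mm10. The counting program, annotation and strand setting are not stated there. Of 55401 rows, 55141 matched GENCODE M21 identifiers, 54349 with the same version.

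Groups came from the labels. After filterByExpr and TMM scaling, edgeR 4.0.16 (R 4.3.3) compared the groups over all genes with its robust quasi-likelihood F-test, adjusted by Benjamini-Hochberg with a threshold of 0.05. The values were already whole and needed no rounding. The SE is the size of the log2 fold change over the square root of F. Alternatives were upper-quartile and RLE scaling, limma-voom with sample weights (limma 3.58.1), DESeq2 1.42.0, no filter, a minimum CPM of 1 in 3 libraries, a replicate block, a fit that was not robust, counts divided by 4, other thresholds and each library omitted. Omitting knockout libraries 2 and 3 was added after seeing the data. The model script was tested on simulated data. The members and lists were chosen with earlier results of these data known. Named were all members, the genes of 2 further lists past the threshold, relatives of members that fell, marker lists and Csmd3. One gene of the further lists that passed is counted but not reported here by name. Depth sets counting error only, since reads carry no molecular identifiers.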

Additional observations from a re-analysis of the deposited data

How the results depend on the processing

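Dlg2, Cnih2 and Nsmf were the members called lower also under RLE scaling, upper-quartile scaling, no filter on low counts and a minimum CPM of 1 in 3 libraries, and no scaling moved the median of all genes by more than 0.01. DESeq2 called 6 members lower and 1 higher, limma-voom with sample weights 1 higher, the fit that was not robust 1 lower, a threshold of 0.01 called 0 lower and a threshold of 0.1 called 1 higher. The labels do not say whether replicate numbers pair the libraries. Same-numbered deviations had correlations of 0.057, 0.0058 and -0.0080, which cannot settle it. With the replicate block in the edgeR fit 2 members were lower, Dlg2 and Shank3, the latter at an adjusted p of 0.0436. Nsmf (0.121), Cnih2 (0.0811) and Csmd3 (0.0664) then no longer passed. In that fit 0 family relatives rose or fell, 1 other postsynaptic density gene fell, and 686 genes rose and 255 fell over all. With single libraries left out, 0 to 4 members were lower and 0 to 1 higher, 0 to 1 relatives lower and 0 to 1 higher, 0 to 9 other postsynaptic density genes lower and 1 to 2 higher, and 137 to 956 of all genes lower and 472 to 1402 higher; the most calls came without wild-type library 3. With knockout libraries 2 and 3 omitted, an alternative added after seeing the data, 0 members, 0 relatives and 0 other postsynaptic density genes were lower, 0 relatives higher, and over all 262 genes rose and 43 fell. Of the other postsynaptic density genes, 8 were lower by DESeq2, 2 in the fit that was not robust, 7 at a threshold of 0.1 and 0 at 0.01, and 2 were higher by limma-voom; relatives numbered 0 lower in the fit that was not robust, and 0 in each direction at 0.01. Over all genes 921 fell by DESeq2, 918 at 0.1 and 89 at 0.01, where 418 rose. The cause of these moves was not tested, and the fits with libraries omitted also held fewer libraries.

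Genes close to 0 or with a large SE changed sign without passing, among them Dlgap2 (-0.18 in the main fit, SE 0.24). RLE scaling, DESeq2 and division of counts by 4 gave -0.0026, -0.0026 and -0.0053 for Homer1, -0.0039, -0.0039 and -0.0065 for Kalrn, and -0.0032, -0.0033 and -0.0058 for Iqsec1. By limma-voom Kalrn was at -0.012, Iqsec1 at -0.031 and Cyfip2 at -0.00064, and with the replicate block Camk2g was at 0.0042. With knockout libraries 2 and 3 omitted, Dlgap2 was at 0.12, Shank2 at 0.029, Gphn at 0.0027, Iqsec2 at 0.045 and Abi2 at 0.022. Ranges with single libraries omitted were -0.34 to 0.12 for Dlgap2, -0.089 to 0.17 for Shank1, -0.24 to 0.061 for Shank2, -0.076 to 0.15 for Homer1, -0.23 to 0.049 for Homer2, -0.18 to 0.080 for Homer3, -0.28 to 0.13 for Camk2g, -0.070 to 0.050 for Kalrn, -0.083 to 0.092 for Iqsec1, -0.12 to 0.033 for Iqsec2, -0.14 to 0.00060 for Abi2, -0.029 to 0.082 for Cyfip2 and -0.17 to 0.29 for Prickle1.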
